A study of Mus musculus with 18 samples.

Results

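Tle3, Lrrc75b, Il34 and Sectm1b were followed across 6 treatment conditions of AT3 cells because their transcripts showed some of the largest falls with A-485, a catalytic inhibitor of the acetyltransferases P300 and CBP. They are 4 of the 43629 gene identifiers in the count table. Genes called lower with a mean of at least 50 counts in the control libraries were ranked by log2 fold change. Every A-485 library also had to lie below every control library. Tle3, Lrrc75b and Il34 ranked 1, 2 and 3 of 68 in A-485 against DMSO, and Sectm1b and Tle3 ranked 2 and 3 of 58 in A-485 plus IFNγ against IFNγ. The next gene in the first ranking was Depp1 at a log2 fold change of -2.72 and in the second Gm12250 at -2.43, whereas the selected genes just inside those places were Il34 at -3.04 and Tle3 at -2.58. Because these falls chose the genes, every comparison that holds DMSO, IFNγ or A-485 libraries is given for them as a description without a test.

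AT3 is a murine mammary carcinoma cell line used as a model of triple-negative breast cancer. Exposure to A-485 at 1000 nM, to A-241 at 250 nM or to DMSO lasted 3 hours in total. Murine IFNγ (recombinant, 1 ng/mL) or its vehicle joined after 1 hour and was present for the last 2 hours. This gives 6 conditions of 3 libraries: DMSO, A-485, A-241, IFNγ, A-485+IFNγ and A-241+IFNγ. RNA was read from transcript 3′ ends with QuantSeq. All libraries come from 1 cell line, and the labels call the triplicates biological in one place and technical in another, so p-values measure the spread between these libraries only.

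P300 and CBP acetylate histones at enhancers and promoters, and their catalytic inhibitors lower the transcription of genes that depend on such elements. TLE3 is a Groucho-family co-repressor that carries no DNA-binding domain and is brought to chromatin by transcription factors such as TCF/LEF, HES/HEY and RUNX proteins. IL-34 is a cytokine that shares the receptor CSF1R with CSF1 and is known for sustaining macrophages and microglia, SECTM1 proteins are membrane-bound or secreted immunoglobulin-like ligands of immune cell receptors, and LRRC75B is a little-studied leucine-rich-repeat protein.

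Tle3 (ENSMUSG00000032280) lies on the forward strand at chr9:61372366-61418497 of GRCm38, Lrrc75b (ENSMUSG00000046807) on the reverse strand at chr10:75550123-75560330, Il34 (ENSMUSG00000031750) on the reverse strand at chr8:110741829-110805924 and Sectm1b (ENSMUSG00000039364) on the reverse strand at chr11:121053458-121063569. All 4 are protein-coding. RefSeq promoter windows of GRCm38.p6 were matched for 2 of the 4 genes, Tle3 and Sectm1b, and the 250 bases before each start are shown because the first gene was detected in DMSO and the second was not. The Tle3 window is chr9:61372116-61372365 on the forward strand and the Sectm1b window is chr11:121063570-121063819 on the reverse strand. Capitals mark the only match to a searched motif.
Tle3: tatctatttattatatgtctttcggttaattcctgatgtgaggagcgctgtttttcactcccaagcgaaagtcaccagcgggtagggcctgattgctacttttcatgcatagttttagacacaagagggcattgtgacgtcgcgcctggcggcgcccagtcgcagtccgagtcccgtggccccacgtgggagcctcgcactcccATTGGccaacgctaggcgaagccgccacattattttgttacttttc
Sectm1b: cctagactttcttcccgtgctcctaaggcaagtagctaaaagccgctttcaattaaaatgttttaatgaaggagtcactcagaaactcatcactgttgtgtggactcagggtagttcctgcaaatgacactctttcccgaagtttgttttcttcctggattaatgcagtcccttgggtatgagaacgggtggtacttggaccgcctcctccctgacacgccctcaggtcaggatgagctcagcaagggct

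The capitals in the Tle3 window, from position -46 to -42 before the start, match CCAAT on the opposite strand, a motif found in 33.8% of 32536 promoter windows of the same length. The other letters searched on both strands were found in neither window. They were the GAS element TTCNNNGAA, held by 7.04% of all windows, and the ISRE core, held by 2.98%. The AP-1 element TGANTCA was held by 6.73% of all windows and the CRE palindrome TGACGTCA by 1.56%. The GC box GGGCGG was held by 33.0%, the TEAD motif GGAATG by 12.6% and the TATA box TATAAA by 12.3%. The Tle3 window held 17 CpG dinucleotides and the Sectm1b window 6, against a median of 6 and an upper quartile of 16 over all windows.

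Library totals ranged from 3417167 to 7856830 counts with a median of 4880947.5, so that 3 counts, taken as the detection floor, correspond to between 0.369 and 1.04 CPM (counts scaled to library size by TMM). Calls used edgeR's quasi-likelihood test at an adjusted p of 0.01 over 11964 genes, and all 4 genes passed its filter on low counts, Sectm1b through the IFNγ group alone. DMSO replicate 3 and IFNγ replicate 2 stood apart from their groups. The root-mean-square distance of log2 CPM from the mean of the other libraries in the group was 1.10 and 1.13 there and 0.339 to 0.767 elsewhere. The transcript Gm42418 took 20.1% and 23.0% of the counts in these 2 libraries, where the others gave 7.11% to 16.2%. The IFNγ-responsive genes Irf1, Cxcl10, Socs1, Tap1 and Cd274 rose with IFNγ alone by edgeR. IFNγ replicate 2 was the low IFNγ library for Irf1 (409 against 721 and 820 CPM) and Cxcl10 (121 against 300 and 250 CPM). For Socs1 it had 1.19 CPM against 62.8 and 56.0 CPM. It was the high library for Tap1 (120 against 72.3 and 70.8 CPM) and lay between the others for Cd274 (18.8 against 21.5 and 12.9 CPM). The 7 epithelial markers summed to 1523 to 1774 CPM in DMSO, 1066 to 1202 with A-485 and 982 to 1026 with A-241, and to 1323 to 1496 with IFNγ, 1033 to 1181 with A-485+IFNγ and 965 to 1109 with A-241+IFNγ, so that the inhibitor libraries lay below their controls. The 4 mesenchymal markers summed to 688 to 747 CPM in DMSO, 551 to 593 with A-485 and 429 to 483 with A-241, and to 684 to 797 with IFNγ, 600 to 701 with A-485+IFNγ and 463 to 540 with A-241+IFNγ. The 7 haematopoietic markers summed to 1.96 to 39.9 CPM in all, with 3.79 to 16.2 CPM in DMSO, 9.92 to 39.9 CPM with A-485 and the macrophage marker Adgre1 at 0 throughout. The part of these marker sums in the results was not tested. In bulk RNA, fewer cells that express a gene and less RNA per cell cannot be told apart.

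Tle3 was high in both conditions without an inhibitor and low in all 4 with one. Its counts were 199, 239 and 147 in DMSO and 26, 22 and 22 with A-485, or 41.9, 37.7 and 50.8 CPM against 4.59, 4.20 and 5.11 CPM. With IFNγ they were 259, 150 and 172, and with A-485+IFNγ 36, 21 and 34, or 31.8, 44.7 and 30.1 CPM against 6.89, 4.28 and 6.46 CPM. The lowest library without an inhibitor thus stood at 30.1 CPM and the highest with one at 6.89 CPM. Because Tle3 was chosen for its falls with A-485, nothing is read from this gap. Group means were 43.5 ± 6.66 CPM (SD, n = 3) in DMSO and 4.63 ± 0.458 CPM with A-485, a log2 fold change of -3.22 (SE 0.27) that left 10.7% of the DMSO level. In the presence of IFNγ the means were 35.5 ± 7.98 and 5.88 ± 1.40 CPM, a log2 fold change of -2.58 (SE 0.26) that left 16.5%. When the 2 libraries that stood apart were left out, the log2 fold changes were -3.13 and -2.40.

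Lrrc75b was also lower with A-485 in both settings, but its uninhibited level varied more between libraries. Its counts were 210, 197 and 249 in DMSO (44.3, 31.1 and 86.0 CPM) and 42, 35 and 20 with A-485 (7.41, 6.68 and 4.65 CPM). With IFNγ they were 109, 161 and 87 (13.4, 48.0 and 15.2 CPM) and with A-485+IFNγ 36, 27 and 32 (6.89, 5.50 and 6.08 CPM). DMSO replicate 3 and IFNγ replicate 2 were the high library of their groups, and the A-485 libraries lay below those of their control in both settings. The log2 fold change was -3.08 (SE 0.47) against DMSO, which left 11.6%, and -2.01 (SE 0.46) against IFNγ, which left 24.1%. Without DMSO replicate 3 and IFNγ replicate 2 these became -2.60 and -1.22.

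Il34 followed the same order of libraries. Its counts were 105, 73 and 128 in DMSO (22.1, 11.5 and 44.2 CPM) and 22, 14 and 11 with A-485 (3.88, 2.67 and 2.56 CPM). With IFNγ they were 67, 114 and 64 (8.23, 34.0 and 11.2 CPM) and with A-485+IFNγ 25, 16 and 19 (4.78, 3.26 and 3.61 CPM). The same 2 libraries were the highest of their groups, and the A-485 libraries lay below those of their control in both settings. The log2 fold change was -3.04 (SE 0.54) against DMSO, which left 11.7%, and -2.14 (SE 0.53) against IFNγ, which left 21.8%, and these became -2.46 and -1.31 without the 2 libraries. The antisense genes Gm15894 and Gm15895 overlap Il34 exons by at most 22 and 75 bases and had at most 1 count in any library.

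Sectm1b, alone among the 4, had no count in DMSO and was detected in every IFNγ library, and its lower level with A-485 was seen in the presence of IFNγ. It had 0 counts in all 3 DMSO libraries, 76, 14 and 62 with IFNγ (9.34, 4.17 and 10.8 CPM), and 6, 8 and 6 with A-485+IFNγ, a mean of 1.31 ± 0.280 CPM. With A-485 alone a single count was seen in 1 library. The IFNγ level was at least 7.83-fold higher than the floor of 3 counts a library in DMSO, and all 3 libraries lay above every DMSO library. Over all tested genes 4.16% did so and 1.2% were called higher. Sectm1b passed the filter through the IFNγ group alone and was chosen for its fall from the IFNγ level, so nothing is read from its separation from DMSO. A-485 left 16.1% of the IFNγ level, a log2 fold change of -2.65 (SE 0.44). Pooled counts were 20 with A-485+IFNγ and 1 with A-485 alone. Every library with A-485 alone lay under the floor of 3 counts, so no fold is given. In that comparison 9.49% of all tested genes lay above every A-485 library and 0.744% were called higher. The choice of genes used these libraries, so nothing is read from the place of Sectm1b there. IFNγ replicate 2, the highest library for Lrrc75b and Il34, was the lowest of its group for Sectm1b, and without it and DMSO replicate 3 the log2 fold change was -2.94.

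**Figure D1:**
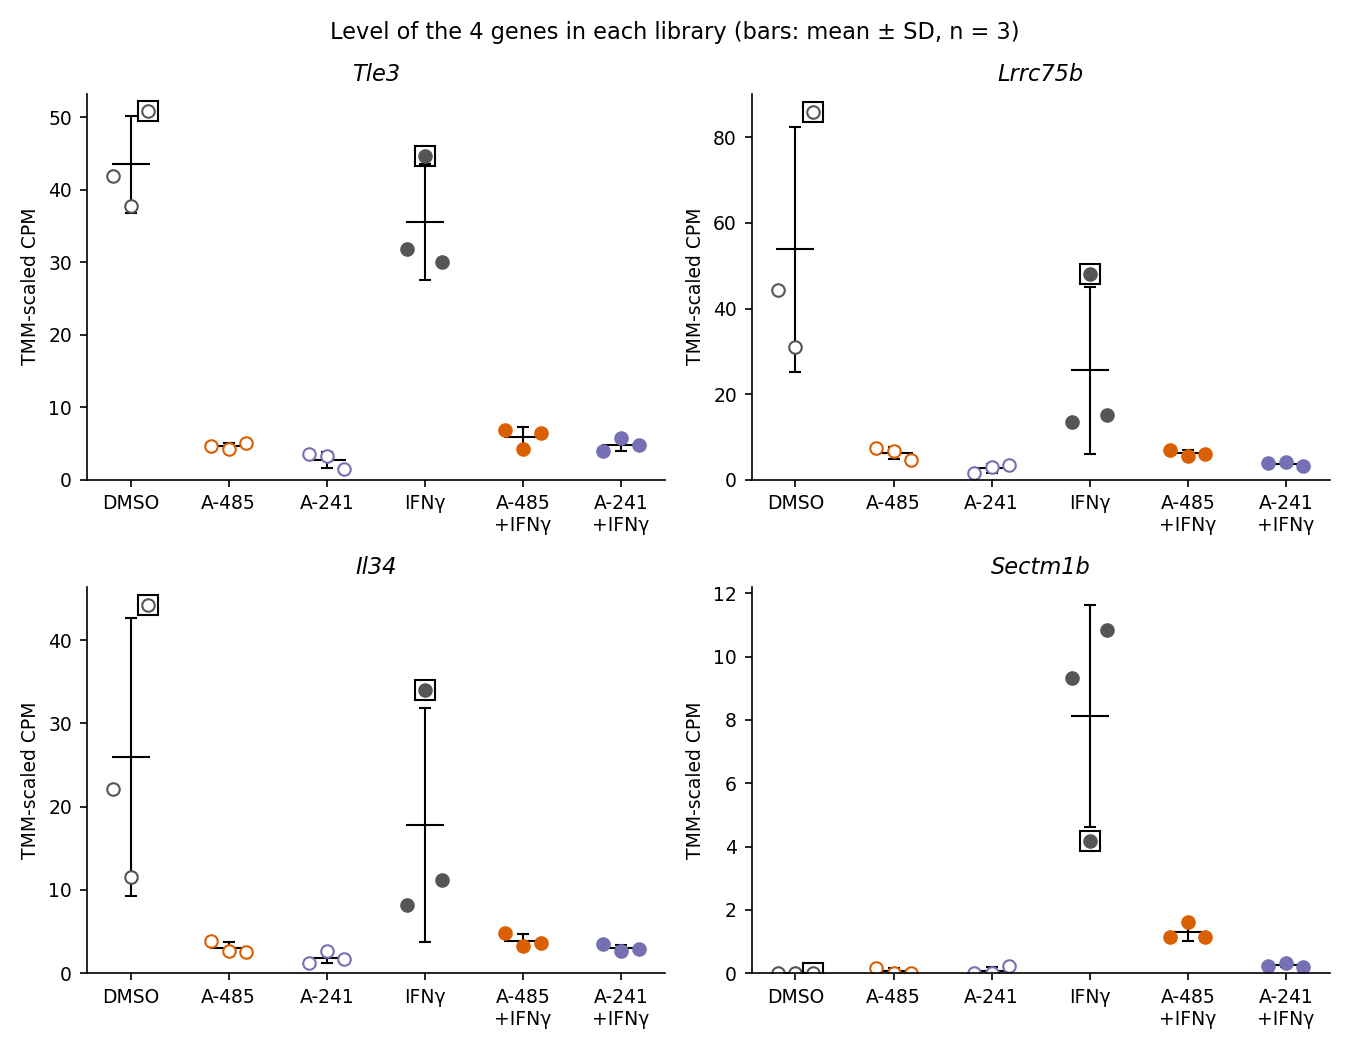
TMM-scaled CPM (y axis, linear, from 0) of each gene in the 6 conditions (x axis). Circles are single libraries, filled with IFNγ and open without, bars are the mean ± SD of 3 libraries, and squares mark DMSO replicate 3 and IFNγ replicate 2. Tle3, Lrrc75b and Il34 lie low in all 4 inhibitor conditions, and Sectm1b is detected above the floor mainly with IFNγ.

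In A-485 against DMSO the 3 detected genes and in A-485+IFNγ against IFNγ all 4 genes lay below every control library. Over all tested genes, 8.84% and 10% did so in these comparisons, and 0.619% and 0.535% were called lower, but the genes were chosen on these same contrasts, so nothing is read from their share.

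A-241 was given at another dose, and its values stand beside those of A-485 without a comparison. Tle3 counts were 17, 16 and 7 with A-241 and 18, 35 and 23 with A-241+IFNγ, or 2.75 ± 1.12 and 4.79 ± 0.897 CPM, which was 6.33% of DMSO and 13.5% of IFNγ. Lrrc75b counts were 7, 15 and 16 with A-241 and 18, 25 and 16 with A-241+IFNγ, at 4.86% of DMSO and 14.7% of IFNγ. Il34 counts were 6, 13 and 8 with A-241 and 16, 16 and 14 with A-241+IFNγ, at 7.13% and 16.8%. All 3 genes lay below every DMSO or IFNγ library with A-241, as they had with A-485, where 13.4% and 12.1% of all tested genes did so and 3.53% and 3.54% were called lower. The log2 fold changes against DMSO were -3.96, -4.33 and -3.76 for Tle3, Lrrc75b and Il34, and against IFNγ -2.87, -2.71 and -2.52. Sectm1b kept 4 pooled counts with A-241+IFNγ (1, 2 and 1), under the floor of 3 counts in every library, against 152 with IFNγ. No fold is given. Sectm1b was chosen for its fall from the IFNγ level, so nothing is read from this gap. These comparisons share their DMSO and IFNγ libraries with those of A-485.

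**Figure D2:**
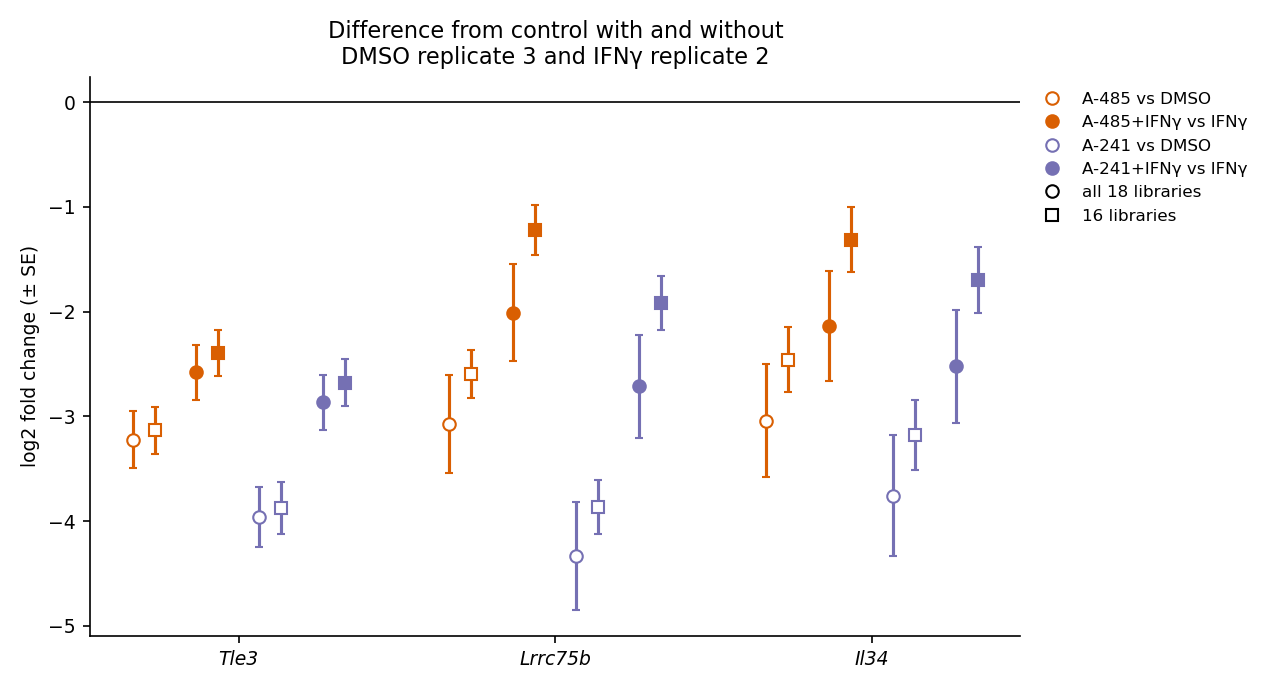
Log2 fold change with its SE (y axis) of Tle3, Lrrc75b and Il34 (x axis) for each inhibitor against its control, with all 18 libraries (circles) and with the 16 that remain without DMSO replicate 3 and IFNγ replicate 2 (squares). Every value is below 0, and the values of Lrrc75b and Il34 against IFNγ lie nearer 0 with 16 libraries.

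With IFNγ alone the first 3 genes had overlapping ranges. Against DMSO the log2 fold changes were -0.29 (SE 0.23) for Tle3, -1.10 (SE 0.42) for Lrrc75b and -0.56 (SE 0.47) for Il34, and in each case an IFNγ library lay within the DMSO range. That library was IFNγ replicate 2 for all 3 genes. Without it and DMSO replicate 3, which left 2 libraries in each of these groups, the log2 fold changes were -0.37, -1.41 and -0.80. With A-485 present, IFNγ moved Tle3 by 0.35, Lrrc75b by -0.03 and Il34 by 0.34, again with overlapping libraries. A-241+IFNγ against A-241 is the only comparison that uses none of the libraries that chose the genes, and it was tested with edgeR. Tle3 was higher in all 3 libraries with IFNγ by a log2 fold change of 0.80 (SE 0.31; unadjusted p = 0.0185, adjusted p = 1.00 by edgeR). Il34 was also higher in all 3, by 0.67 (SE 0.65; unadjusted p = 0.315), and Lrrc75b by 0.52 (SE 0.56; unadjusted p = 0.368) with overlapping libraries, and no gene passed the edgeR threshold. Among all tested genes 0.192% were called higher there and 6.08% lay above every A-241 library without overlap. By DESeq2 and limma-voom 0 of these 3 genes were called, and 1, Tle3, had an unadjusted edgeR p under 0.05. Sectm1b had 1 count in A-241 and 4 in A-241+IFNγ, at or under the floor in every library. It is left out of that count, and no fold is given.

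Over the 18 libraries the levels of Tle3, Lrrc75b and Il34 moved together, and Sectm1b did not follow them. Pearson's r of log2 CPM was 0.97 for Lrrc75b and Il34, 0.93 for Tle3 and Il34, and 0.92 for Tle3 and Lrrc75b, but 0.21 to 0.38 for Sectm1b with each of the others. These are descriptions over libraries that share 6 conditions, and the inhibitor conditions that chose the genes set most of the range. Without DMSO replicate 3 and IFNγ replicate 2 the value for Lrrc75b and Il34 was 0.96 over 16 libraries.

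**Figure D3:**
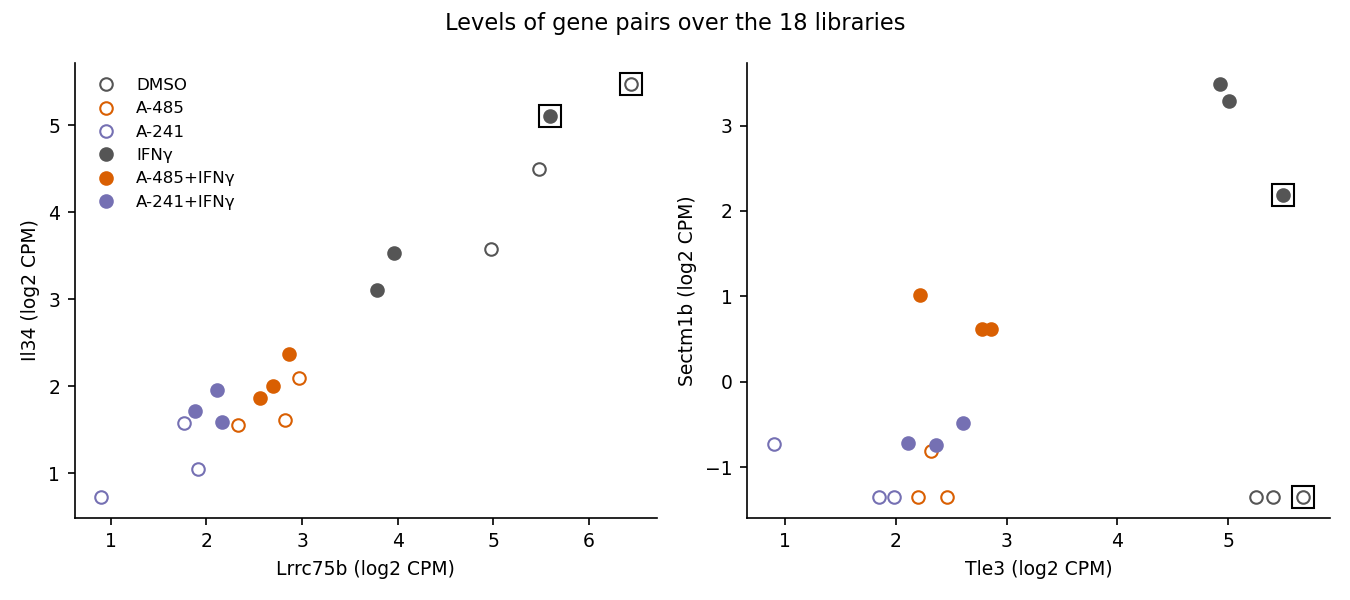
Log2 CPM of Il34 against Lrrc75b (left) and of Sectm1b against Tle3 (right) in the 18 libraries, coloured by condition, with squares on DMSO replicate 3 and IFNγ replicate 2. The left points follow 1 line from A-241 to DMSO replicate 3, while in the right panel the 3 DMSO libraries are high in Tle3 and lowest in Sectm1b.

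The genes whose profile was most like each of the 4 by Pearson's r were ranked over 9847 to 9848 genes with a mean of at least 20 counts a library. For Tle3 they were Atp6v0a4 (r = 0.96), a subunit of the vacuolar proton pump, the cell-cycle regulator Ccnd1 (r = 0.96) and the transcriptional co-activator Eya2 (r = 0.95). For Lrrc75b they were the secreted protease gene Prss23 (r = 0.98), Il34 (r = 0.97) and Frmd4a (r = 0.97), and for Il34 they were Lrrc75b (r = 0.97), the vitamin D receptor gene Vdr (r = 0.97) and the basal keratin gene Krt14 (r = 0.97). For Sectm1b they were Gm4951 (r = 0.96) and the interferon-inducible GTPase genes Tgtp1 (r = 0.95) and Tgtp2 (r = 0.95), near-identical copies whose reads may be split between them. The order depended on the measure and the libraries. By Spearman's rho the gene ranked 1 was Kif26b for Tle3, Notch1 for Lrrc75b, Srgap1 for Il34 and F830016B08Rik for Sectm1b, and Ccnd1 was ranked 102, Krt14 67, Gm4951 66 and, for Lrrc75b, Il34 39. Over the 16 libraries the gene ranked 1 by Pearson's r was the same for Lrrc75b, Il34 and Sectm1b and was Hs6st1 for Tle3, while Ccnd1, Eya2, Frmd4a, Vdr, Krt14 and Tgtp2 left the leading 3 of their gene.

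No other Groucho-family gene passed the threshold. Of 5 listed genes, 4 were tested with edgeR and 0 were called in any of the 7 comparisons, where 0 to 2 had an unadjusted p under 0.05 and DESeq2 and limma-voom called 0. Tle1, the closest to the threshold, had 35, 68 and 6 counts in DMSO and 10, 7 and 10 with A-241, a log2 fold change of -1.91 (edgeR adjusted p = 0.0543). DMSO replicate 3 was the low library there, although it was the high one for Lrrc75b. Aes, the short family member, had 523, 535 and 287 counts in DMSO and 423, 395 and 373 with A-485, a log2 fold change of -0.31 (edgeR adjusted p = 0.340).

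Transcription factors that recruit TLE proteins fell in part, with the largest called fall in Runx1. Of 20 listed, 11 were tested, and edgeR called 0 with A-485 against DMSO (4 at an unadjusted p under 0.05, 2 by DESeq2 and 1 by limma-voom), 1 lower with A-485+IFNγ against IFNγ, 4 lower with A-241 against DMSO and 3 lower with A-241+IFNγ against IFNγ. Over all tested genes, 0.619%, 0.535%, 3.53% and 3.54% were called lower in these comparisons. Runx1, a haematopoietic and epithelial lineage factor, had 218, 267 and 160 counts in DMSO, 144, 121 and 90 with A-485 and 23, 28 and 27 with A-241. Its log2 fold change was -3.14 (edgeR adjusted p = 1.75e-07) with A-241 and -1.04 (edgeR adjusted p = 0.0103) with A-485 against DMSO. Against IFNγ it was -3.02 (edgeR adjusted p = 3.26e-07) with A-241 and -1.15 (edgeR adjusted p = 0.00735) with A-485, and the last call was lost in 7 of 17 alternatives, over which the edgeR, DESeq2 or limma-voom adjusted p ranged from 3.27e-05 to 0.189. It was lost without IFNγ replicate 1 or 2 and without any A-485+IFNγ replicate, at edgeR adjusted p of 0.0112 to 0.0385.

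The other called factors were the Wnt effector Tcf7l2, the Notch target Hey1 and Runx3. Tcf7l2 fell with A-241, with log2 fold changes of -1.36 against DMSO and -1.89 against IFNγ (edgeR adjusted p = 0.00216 and 0.000117). With A-485 its log2 fold changes were -1.28 and -1.18 (edgeR adjusted p = 0.0118 and 0.0188). Hey1 and Runx3 fell with A-241 against DMSO, with log2 fold changes of -2.06 and -1.09 (edgeR adjusted p = 0.00282 and 0.00364), and Runx3 did so against IFNγ at -1.02 (edgeR adjusted p = 0.00651). These 3 calls were lost in 6 of 16, 7 of 17 and 9 of 17 alternatives, and that of Tcf7l2 against DMSO in 4 of 17. Against DMSO, leaving out any A-241 library ended the calls of Hey1 and Runx3, as did DMSO replicate 2 for both and DMSO replicate 1 for Runx3, with edgeR adjusted p of 0.011 to 0.0234 for Hey1 and 0.0173 to 0.0247 for Runx3. The call of Tcf7l2 was lost without DMSO replicate 1 or A-241 replicate 2 or 3, at 0.0108 to 0.0155, and that of Runx3 against IFNγ without IFNγ replicate 1 or 3 or any A-241+IFNγ replicate, at 0.0177 to 0.0413. Prdm1, a repressor that binds TLE proteins, instead rose with IFNγ, from 9, 21 and 1 counts in DMSO to 201, 20 and 116, a log2 fold change of 3.05 (edgeR adjusted p = 0.0036), a call lost in 6 of 16 alternatives and, at edgeR adjusted p of 0.0161 to 0.0303, without DMSO replicate 1 or IFNγ replicate 1 or 3. It also rose with A-485+IFNγ against A-485, by 4.25 (edgeR adjusted p = 0.000585). With A-241+IFNγ against A-241 its log2 fold change was 4.31 (edgeR adjusted p = 0.0395, not called), from 0, 1 and 2 counts to 13, 33 and 26. Its log2 fold changes with A-241 were -3.19 against DMSO and -1.92 against IFNγ (edgeR adjusted p = 0.0471 and 0.0207, not called). With A-485 they were -1.06 and 0.14 (edgeR adjusted p = 0.582 and 0.915).

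The partners of IL-34 were partly absent from these cells. The receptor genes Csf1r and Ptprz1 had at most 2 counts in any library, and 2 of 6 listed genes were tested, Csf1 and Sdc1. Csf1, which encodes the other CSF1R ligand, had 52, 82 and 46 counts in DMSO, 234, 91 and 125 with IFNγ and 47, 49 and 45 with A-485+IFNγ. It rose with IFNγ by a log2 fold change of 0.98 (edgeR adjusted p = 0.00506, lost in 6 of 17 alternatives, among them without DMSO replicate 1 or 2 or IFNγ replicate 1 at 0.0276 to 0.0404). The ranges of Il34 overlapped there, and the difference between these genes was not tested. It fell with A-485+IFNγ against IFNγ at a log2 fold change of -1.50 (edgeR adjusted p = 0.000555), with A-241 against DMSO at -1.64 (edgeR adjusted p = 6.83e-05) and at -1.63 with A-241+IFNγ against IFNγ (edgeR adjusted p = 2.82e-05). With A-485 against DMSO its log2 fold change was -0.71 (edgeR adjusted p = 0.0683).

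Sdc1 encodes syndecan-1, a proteoglycan that binds IL-34. It had 458, 600 and 269 counts in DMSO and 234, 252 and 228 with A-485, or 94.7 ± 1.80 against 47.5 ± 5.86 CPM, a fall called by edgeR (edgeR adjusted p = 0.00141, lost in 3 of 17 alternatives, among them without A-485 replicate 1 at 0.0181). With A-241 it fell at log2 fold changes of -1.42 against DMSO and -0.69 against IFNγ (edgeR adjusted p = 1.30e-05 and 0.00612), the last lost in 9 of 17 alternatives, among them without IFNγ replicate 1 or 3 or any A-241+IFNγ replicate at 0.0124 to 0.0355. With A-485+IFNγ against IFNγ its log2 fold change was -0.73 (edgeR adjusted p = 0.0158).

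**Figure D4:**
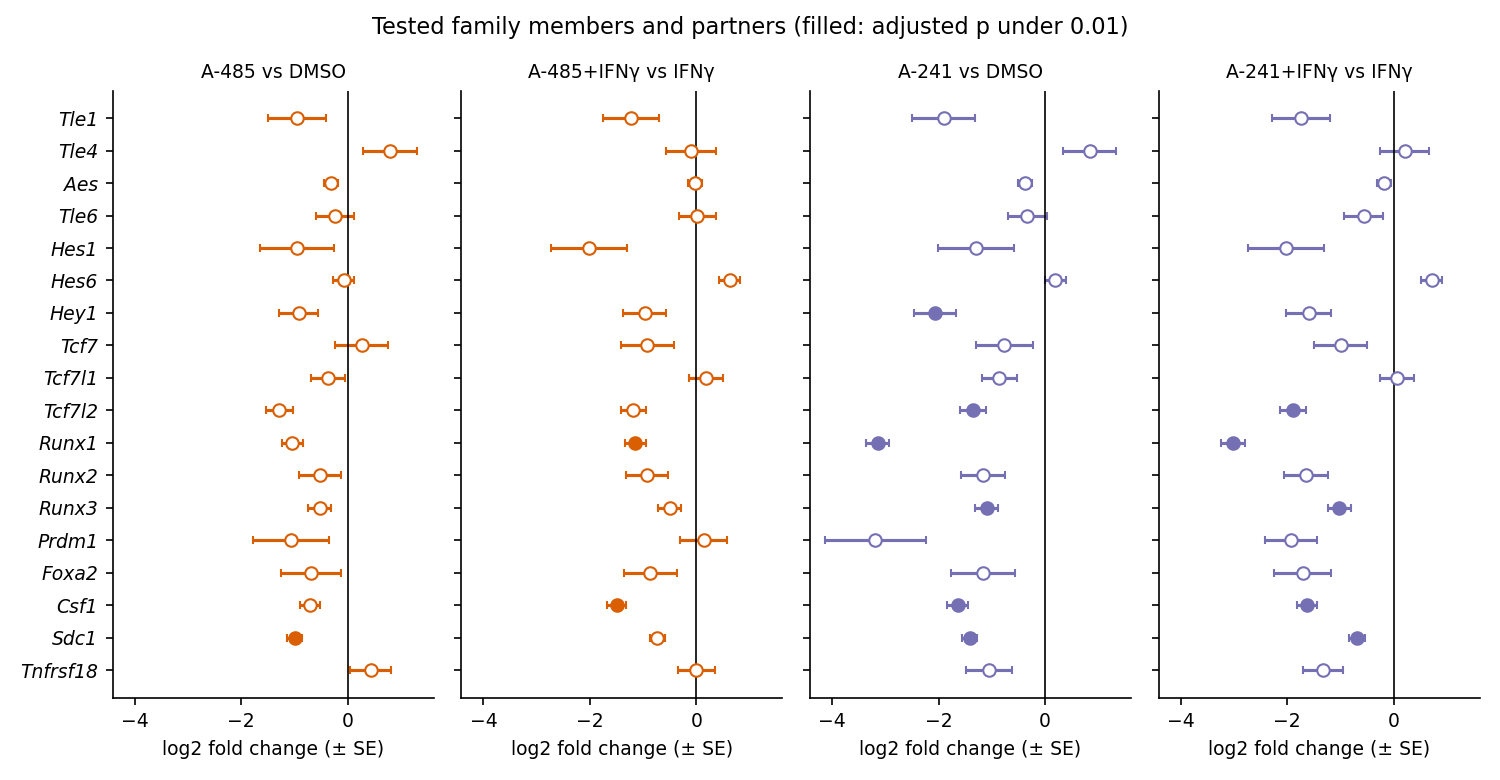
Log2 fold change with its SE (x axis) of the tested genes of the Groucho family, the TLE-binding factors, the IL-34 and CSF1 axis and the SECTM1 group (y axis) for each inhibitor against its control. Filled points have an edgeR adjusted p under 0.01. With A-241 against DMSO 6 points are filled, all below 0, and with A-485 against DMSO 1, Sdc1.

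The paralogue of Sectm1b lies beside it and had counts with IFNγ and with A-485+IFNγ only. Sectm1a lies 3838 bases from Sectm1b in the annotation and had 0 counts in DMSO, 28, 1 and 16 with IFNγ and 2, 7 and 0 with A-485+IFNγ, and it did not pass the filter, so it was not tested. IFNγ replicate 2, with its 1 count, was also the lowest IFNγ library for Sectm1b. The longest exact run shared by transcripts of both genes was 12 bases, against reads of 75 bases. Cd7, whose product binds human SECTM1, had at most 5 counts in a library, and Tnfrsf18, which encodes GITR, was tested and not called in any comparison by edgeR, DESeq2 or limma-voom, with an unadjusted edgeR p under 0.05 in 3 of the 7. Lrrc75a, the paralogue of Lrrc75b, had at most 8 counts in a library and was not tested.

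None of the tested genes beside the 4 on the chromosome passed the threshold. Of 16 protein-coding neighbours, the nearest 2 on each side, 10 were tested and edgeR called 0 in any of the 7 comparisons, with 0 to 2 at an unadjusted p under 0.05 and 0 by DESeq2 and limma-voom. Mtss1l, which lies 429 bases from Il34, had a log2 fold change of 0.26 (SE 0.36) with A-485 against DMSO, and Sf3b3, on the other side, 0.05 (SE 0.18). Snrpd3, the nearest tested gene to Lrrc75b, stood at -0.90 (SE 0.54; edgeR adjusted p = 0.535), with 907, 787 and 3569 CPM in DMSO and 1032, 1005 and 785 CPM with A-485. DMSO replicate 3, the highest DMSO library for Lrrc75b too, was the only DMSO library above the A-485 range. Csnk1d, near Sectm1b, stood at 0.33 (SE 0.16). Uaca, next to Tle3, stood at -0.61 (SE 0.26; edgeR adjusted p = 0.352). The median log2 fold change of all tested genes lay between -0.033 and 0.014 in the 7 comparisons.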

How the data were processed

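AT3 cells were profiled by QuantSeq 3′ mRNA sequencing in 18 libraries. The authors deposited raw read counts per Ensembl mouse gene, neither normalized nor pooled. The submitters' processing notes name bcl2fastq 2.17.1.14, FastQC 0.11.5, cutadapt 1.7, HISAT2 2.1.0, featureCounts and the build mm10, and the strand setting is not given in the sources used here. Symbols came from a GENCODE annotation of GRCm38, which matched 42462 of 43629 identifiers.

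Counts were filtered with filterByExpr, scaled by TMM and fitted in edgeR 4.0.16 (R 4.3.3) with 1 mean per condition, and p-values were adjusted by Benjamini-Hochberg over 11964 genes. The study used limma-voom. Here limma 3.58.1 and DESeq2 1.42.0 served as alternatives, with other filters, scalings, samples and a replicate block. Levels are TMM-scaled CPM, with 2 prior counts on the log2 scale. Fitting was tested on simulated data. Replicates of a group differed beyond sampling noise (chi-square per degree of freedom 2.13 to 135).

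The members and gene lists were chosen with earlier results of these data known. The text names the 4 genes, the listed genes that were called or are described as paralogues, receptors or partners, the 3 most similar genes and the nearest neighbours. Proteins and other promoters were not used here. 1 listed gene is not reported here.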

Additional observations from a re-analysis of the deposited data

How the results depend on the processing

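The lower levels of Tle3, Lrrc75b, Il34 and Sectm1b with either inhibitor kept their direction under all alternatives that gave a value, and a filter of 10 counts in every library gave none for any of the 4. The genes were chosen for falls with A-485, and the A-241 comparisons share the same control libraries. Nothing is therefore read from the kept direction. Without DMSO replicate 3 and IFNγ replicate 2, the log2 fold change became -1.22 for Lrrc75b and -1.31 for Il34 with A-485+IFNγ against IFNγ, and -1.92 and -1.70 with A-241+IFNγ. Leaving out 1 library in turn gave, for Lrrc75b and Il34, -2.33 to -1.22 and -2.50 to -1.32 with A-485+IFNγ against IFNγ, and -3.03 to -1.91 and -2.88 to -1.69 with A-241+IFNγ against IFNγ, nearest 0 without IFNγ replicate 2. With IFNγ against DMSO Il34 ranged from -1.38 to 0.05 (0.048 without DMSO replicate 3), and with A-485+IFNγ against A-485 Lrrc75b ranged from -0.20 to 0.11 (0.11 without A-485 replicate 1, 0.014 without A-485 replicate 2, 0.043 without A-485+IFNγ replicate 2). The 3 tested responses to IFNγ with A-241 stayed uncalled in 48 of 48 alternatives.

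The number of related genes called moved more. It was 1 with A-485 against DMSO, 3 by DESeq2, RLE factors, the 10-count filter or a threshold of 0.05, 2 by limma-voom or no filter, 4 without both libraries and 0 from the compared groups alone (0 to 2 leaving out 1 library). With A-485+IFNγ against IFNγ it was 2, against 4 by DESeq2 or a threshold of 0.05, 7 without both libraries and 0 from the compared groups (1 to 2 leaving out 1). With A-241 against DMSO it was 6, against 2 from the compared groups (3 to 6). With A-241+IFNγ against IFNγ it was 5, against 8 by DESeq2, 10 without both libraries or at 0.05, 3 by total counts and 2 from the compared groups (3 to 8). With IFNγ against DMSO it was 2, against 1 by limma-voom, no filter or the 10-count filter and 0 from the compared groups (0 to 2). With A-485+IFNγ against A-485 it was 1, against 0 by the 10-count filter and 2 from the compared groups (1 leaving out any 1). With A-241+IFNγ against A-241 it was 0 by edgeR, against 1 by DESeq2, no filter, the compared groups, without both libraries or at 0.05. The causes were not tested. Over all genes, calls lower with A-485 against DMSO numbered 74, against 232 by DESeq2, 277 without both libraries and 0 from the compared groups alone. In the same order they numbered 64, 211, 287 and 0 with A-485+IFNγ against IFNγ. The numbers were 422, 634, 791 and 74 with A-241 against DMSO, and 424, 608, 713 and 82 with A-241+IFNγ against IFNγ. Calls higher with IFNγ against DMSO numbered 144, 187, 196 and 19. Nothing is read from these moves about the related genes alone.

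Replicate numbers did not pair the samples: deviations of same-numbered libraries correlated at -0.80 to 0.48 (median -0.018, 45 pairs, 15 over 0.1). With the replicate number as a block, 1 related gene was called with A-485+IFNγ against IFNγ, 3 with A-241+IFNγ against IFNγ and 0 with IFNγ against DMSO, and calls lower with A-485 against DMSO over all genes numbered 50.

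Among edgeR calls of related genes, those of Runx1 with A-241, of Tcf7l2 with A-241+IFNγ, of Sdc1 with A-241 against DMSO and of Prdm1 with A-485+IFNγ were kept in all alternatives that gave a value.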
